A study of Mus musculus with 3 samples.

Results

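The genes described here are 6 signal transducers and activators of transcription (Stat2, Stat3, Stat4, Stat5a, Stat5b and Stat6) and 3 Janus kinases (Jak1, Jak2 and Jak3), 9 of the 50600 genes counted. They were chosen by gene symbol and not by any measured value, and each symbol matched 1 gene of the deposited files. The series holds RNA-seq of primary T-helper 1 (Th1) cells from C57BL/6NJ mice, in 3 libraries that form 1 group and are numbered as biological replicates 1, 2 and 3. The labels give all libraries the same donor record and give no sex or age, so the spread below is that between these libraries and may be technical in part. The headers name a time of 72 hours and sorted cells, and no untreated or other T-cell group is part of the series, so levels are compared between genes and between libraries only.

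Janus kinases are tyrosine kinases bound to the inner tails of cytokine receptors. When a cytokine draws receptor chains together, the kinases phosphorylate the receptor, STAT proteins dock there and are phosphorylated in turn, and STAT dimers enter the nucleus and switch on target genes. In CD4 T cells, interleukin 12 acts through Stat4 towards the Th1 fate, interleukin 4 through Stat6 towards the Th2 fate, interleukin 2 through Stat5a and Stat5b, and interleukins 6, 10 and 21 largely through Stat3. Stat2 joins Irf9 in the response to type I interferon. Jak3 binds the common gamma chain of the interleukin 2 receptor family, Jak1 binds its partner chains and interferon receptors, and Jak2 serves the interleukin 12 receptor and 1 chain of the interferon gamma receptor.

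On GRCm38, the mm10 assembly, Stat3 (100885098 to 100939540, minus strand), Stat5a (100859351 to 100885169, plus) and Stat5b (100780731 to 100850724, minus) lie side by side on chromosome 11. Stat6 (127642986 to 127660957) and Stat2 (128270559 to 128292849) lie near each other on the plus strand of chromosome 10. Stat4 lies on chromosome 1 (51987148 to 52107189, plus). The kinase genes are scattered, with Jak1 on chromosome 4 (101152367 to 101265282, minus), Jak2 on chromosome 19 (29251828 to 29313080, plus) and Jak3 on chromosome 8 (71676296 to 71690575, plus).

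Stat5a and Stat5b are related neighbours on chromosome 11, with 66.2% and 66.8% of their coding bases in 12-base windows found in the other, and their sequences bear on how far their counts can be told apart. Their longest identical coding run had 324 bases, at coding positions 571 to 894 of each gene counted from the A of the start codon. On GRCm38 that run lay between 100874023 and 100874983 in Stat5a (plus strand) and between 100797741 and 100798701 in Stat5b (minus strand), a span of 961 bases in each that holds 2 introns. Of the 50-base windows of the principal transcript, 15.8% of those of Stat5a were also in Stat5b and 11.8% of those of Stat5b were also in Stat5a. With windows of 100 bases the shares were 6.99% and 5.18%. No window of 50 bases was shared on the same strand between any other pair of the 9 principal transcripts. The first 100 bases of the identical run are shown once for both genes, at chr11:100874023-100874122 on the plus strand in Stat5a and chr11:100798602-100798701 on the minus strand in Stat5b. The last 60 coding bases are shown next, at chr11:100883934-100883993 (plus strand) for Stat5a and chr11:100783099-100783158 (minus strand) for Stat5b. Capitals mark the bases that lie in no 12-base window found in the other copy, and they make up 59 of 60 bases in Stat5a and 42 of 60 in Stat5b. Sequences are from GENCODE mouse release 21.
Stat5a and Stat5b, start of the identical run: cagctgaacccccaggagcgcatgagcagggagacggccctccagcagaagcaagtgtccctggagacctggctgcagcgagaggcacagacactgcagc
Stat5a, coding end: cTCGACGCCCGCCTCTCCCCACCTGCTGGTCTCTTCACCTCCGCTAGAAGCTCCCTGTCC
Stat5b, coding end: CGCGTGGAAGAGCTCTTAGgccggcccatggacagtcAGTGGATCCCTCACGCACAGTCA

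Promoters were searched for the letters of STAT and interferon response sites. RefSeq (GRCm38.p6) gave 12 promoters for the 9 genes, each with 250 bases before and 50 after a start. The motif TTCNNNGAA, which is its own reverse complement in form and is the core bound by most STAT dimers, was in 0 of the 12 and in 8.30% of all 32851 promoters. The core of the interferon-stimulated response element, read as TTTC, any 2 bases and TTTC again on either strand, was in 2 of the 12 and in 3.44% of all promoters. One was the promoter of Stat2, with the motif 222 to 213 bases before the start, and the other an internal start of Stat4, with the motif 97 to 88 bases before it. They are shown with up to 30 bases on either side and the motif in capitals, at chr10:128270248-128270315 and chr1:52008113-52008182, both on the plus strand. A match is a string of letters and not a measured binding site.
Stat2: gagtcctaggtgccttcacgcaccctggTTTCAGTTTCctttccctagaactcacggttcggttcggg
Stat4: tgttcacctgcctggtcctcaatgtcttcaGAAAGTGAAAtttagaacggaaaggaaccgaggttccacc

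Levels are given as TPM, the count of a gene divided by its exon length and scaled to the same sum in each library. The libraries held 4482916, 266790 and 3733531 counts in replicates 1, 2 and 3, so replicate 2 was 16.8-fold shallower than replicate 1. The 9 genes held 6666, 389 and 4185 of these counts. For a gene of 5000 bases, 3 counts equalled 0.287, 4.64 and 0.295 TPM in replicates 1, 2 and 3, which is taken as the counting floor, and all 9 genes were above it in every library. All 6 T-cell markers and all 6 Th1 markers reached 1 TPM on average, with summed levels over the libraries of 756 to 1427 and 1560 to 3040 TPM. The Th1 sum was led by Lta, at a mean of 1591 TPM. The Th1 marker Cxcr3 had only 8, 0 and 6 counts, and its mean lay below that of the CD8 T-cell marker Cd8b1. The T-cell marker Cd3e had 292, 1 and 157 counts. Cd3e and Cd3g were called in the test between libraries described below, while Cd3d, Cd4, Cd5, Cd2 and the Th1 markers with enough counts were not. Natural killer markers Ncr1 and Klrb1c, neutrophil markers S100a8 and S100a9, macrophage markers Lyz2 and Adgre1, the B-cell marker Ms4a1 and the CD8 T-cell marker Cd8a had 0 counts in each library. The highest marker of another cell type was the macrophage receptor gene Csf1r at 111 ± 25.0 TPM (SD, n = 3), whose exons overlap a gene on the other strand. The macrophage marker Cd68 had 12.7 ± 5.15 TPM, the B-cell marker Cd79a 8.23 ± 4.00 (11, 2 and 31 counts) and the CD8 T-cell marker Cd8b1 2.28 ± 2.26 (14, 0 and 7 counts). Summed over the list, the 4 macrophage markers stood between 96.4 and 144 TPM. The counting used strand setting 1, and on the mitochondrial genome mt-Nd6 had 18316, 1673 and 13631 counts, against 10721, 546 and 5027 for mt-Co1, which lies on the opposite strand. Divided by length, mt-Nd6 was also the higher, at a mean of 18241 TPM against 2550 TPM for mt-Co1. The orientation of the library kit is not given in the sources used here. Every level below is that of the counted strand. Were the kit to mark strand the other way round from setting 1, the levels would be those of RNA from the strand opposite each gene. Beyond the mitochondrial values above this was not tested. Reading a level as expression of the named gene thus depends on setting 1 matching the kit. In these bulk libraries fewer cells that express a gene and less of its RNA per cell cannot be told apart.

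Among the kinases, Jak2 was the highest in each library. It had 85.0, 103 and 47.2 TPM in replicates 1, 2 and 3, from 894, 67 and 483 counts. Jak3 had 52.9, 49.2 and 31.9 TPM from 592, 34 and 348 counts, and Jak1 had 51.1, 40.7 and 28.9 TPM from 773, 38 and 425 counts. Replicate 3 was the lowest library for each of the kinases, and the highest was replicate 2 for Jak2 and replicate 1 for the other two. The means were 78.4 ± 28.5 TPM for Jak2, 44.7 ± 11.2 for Jak3 and 40.2 ± 11.1 for Jak1 (SD, n = 3 each). Jak2 exceeded Jak3 by a mean log2 ratio of 0.76 ± 0.26 and Jak1 by 0.91 ± 0.36 (SD, n = 3), on the log2(TPM + 1) scale. Both differences were larger than their spread and had the same direction in 3 of 3 libraries. With 3 libraries an exact two-sided sign-flip permutation test cannot give a p below 0.25, which is what it gave for both.

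Among the STAT genes, with counts divided by all exon bases, Stat6 was highest on average and Stat4, the factor downstream of interleukin 12, lowest. Stat6 had 83.0, 75.6 and 51.8 TPM in replicates 1, 2 and 3, from 764, 43 and 464 counts, and a mean of 70.1 ± 16.3 TPM (SD, n = 3). Stat4 had 24.9, 30.0 and 17.1 TPM from 202, 15 and 135 counts, and a mean of 24.0 ± 6.48 TPM. The lowest library of Stat6 lay above the highest of Stat4, so the levels of these genes did not overlap. Stat6 is the factor tied to the other fate, and the files give its RNA only, not its phosphorylation.

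Stat5b had 79.2, 51.7 and 48.8 TPM from 917, 37 and 550 counts, and Stat5a, which relays the same cytokine, had 62.6, 57.5 and 38.6 TPM from 934, 53 and 560 counts. Their means were 59.9 ± 16.8 and 52.9 ± 12.7 TPM (SD, n = 3 each), and Stat5b was higher in replicates 1 and 3 only. The mean log2 ratio of Stat5b over Stat5a was 0.17 ± 0.28 (SD, n = 3), within its spread. This rested on gene length. With principal transcript lengths Stat5a was higher in each library, at 88.3, 82.2 and 57.3 TPM against 64.6, 42.8 and 42.0 for Stat5b. The header shows no option to count fragments that map to several places, and with a fragment length that is not given here the loss in the identical stretches shown above was not tested. Stat3 had 56.4, 71.5 and 49.1 TPM from 1123, 88 and 953 counts, the most counts of the 9 genes in each library, and a mean of 59.0 ± 11.4 TPM.

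Stat2 had 37.7, 18.3 and 22.1 TPM in replicates 1, 2 and 3, from 467, 14 and 267 counts, and a mean of 26.0 ± 10.3 TPM (SD, n = 3). It was the only one of the 9 genes whose lowest library was replicate 2. The 95% exact Poisson interval from the 14 counts of replicate 2 reached up to 30.7 TPM, above the level of replicate 3. It did not reach the interval of replicate 1, from 34.3 to 41.3 TPM. Such intervals cover counting error only.

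**Figure D1:**
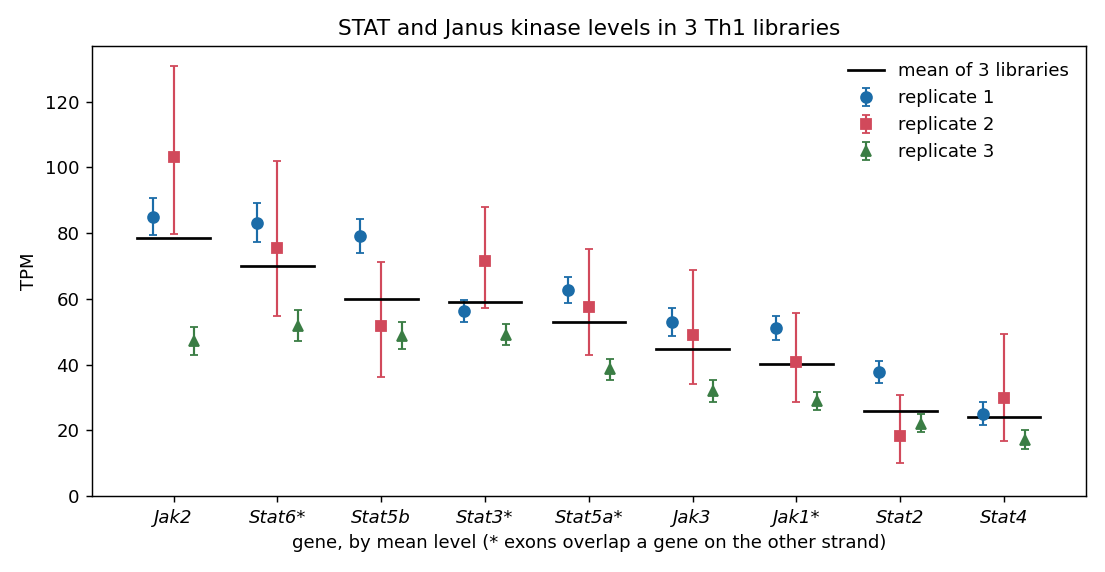
TPM (vertical axis) of the 9 genes in replicates 1, 2 and 3, with 95% Poisson intervals of the counts as error bars and the mean of the 3 libraries as a black line. Replicate 3 is the lowest library for all genes but Stat2, and the intervals of the shallow replicate 2 are the widest.

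Ordered by mean TPM, the genes ran Jak2, Stat6, Stat5b, Stat3, Stat5a, Jak3, Jak1, Stat2 and Stat4, a range of 3.26-fold from end to end. All 9 reached 10 TPM and thus also 1 TPM, against 27.3% and 47.8% of the 21764 protein-coding genes, whose median was 0.634 TPM. Stat4 stood above 84.3% and Jak2 above 94.6% of them. Of the 8 neighbouring pairs in the order, 4 had the same direction in every library and 3 differed by more than their spread. Those 3 were Stat5a over Jak3 (mean log2 ratio 0.24 ± 0.02), Jak3 over Jak1 (0.15 ± 0.11) and Jak1 over Stat2 (0.64 ± 0.41, SD, n = 3 each). The ratio of Jak3 over Jak1 rested on gene length, at 0.0095 with principal transcript lengths and -0.28 when counts were scaled to the library total only. Stat5b over Stat3 (0.00 ± 0.47) and Stat2 over Stat4 (0.08 ± 0.67) did not differ beyond their spread. Nor did Jak2 over Stat6 (0.11 ± 0.30), Stat6 over Stat5b (0.23 ± 0.27) or Stat3 over Stat5a (0.17 ± 0.27). Stat5b over Stat3 also rested on gene length, at -0.97 with principal transcript lengths and -0.77 with counts scaled to the library total only. Over all 36 pairs, 29 had 1 direction in 3 of 3 libraries and 27 differed by more than their spread. Stat2 and Stat4 were below every other gene in 3 of 3 libraries. No pair could go below 0.25 in the exact sign-flip permutation test.

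Shares within a family do not depend on how a library was scaled, but do depend on gene length, here all exon bases. Jak2 made up 45.0%, 53.4% and 43.7% of the summed TPM of the 3 kinase genes in replicates 1, 2 and 3, a mean of 47.4% ± 5.30 (SD, n = 3). Jak3 held 27.7% ± 2.06 and Jak1 25.0% ± 3.36. Among the 6 STAT genes, Stat6 held 24.1%, 24.8% and 22.8% in replicates 1, 2 and 3, and Stat5a 18.2%, 18.9% and 17.0%, with SDs of 1.05 and 0.981. These SDs are in percentage points. The shares of these genes thus moved little, while their TPM ran from 51.8 to 83.0 for Stat6 and from 38.6 to 62.6 for Stat5a. Relative to the mean, the coefficients of variation of TPM were 23.3% and 24.0%. Stat3 and Stat5b each averaged 20.5% but ran opposite ways, with 23.5% and 17.0% in replicate 2, against 16.4% and 23.0% in replicate 1. Stat2 held 8.90% ± 2.58 and Stat4 8.21% ± 1.42.

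**Figure D2:**
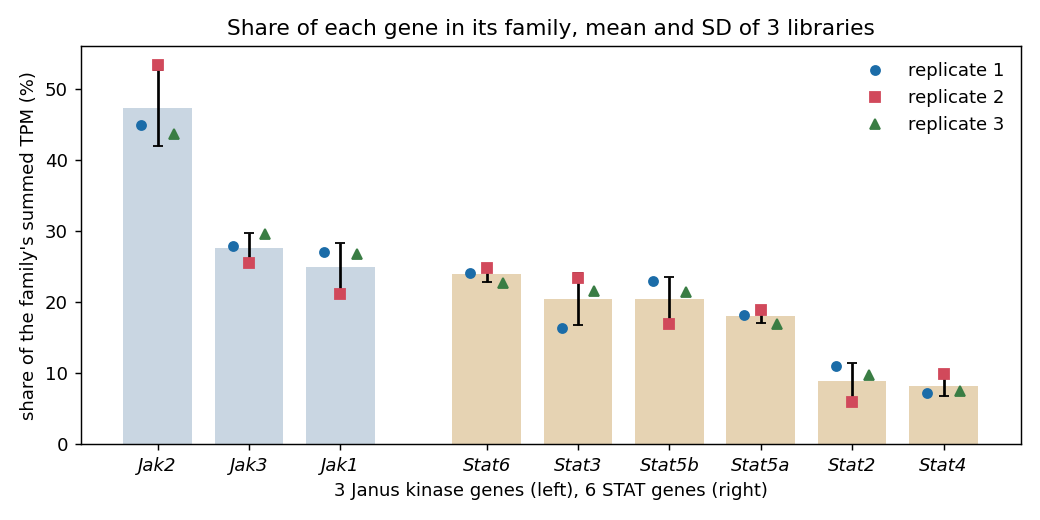
Share of each gene in the summed TPM of its family (vertical axis, percent), with bars for the mean, error bars for the SD and points for the 3 libraries. With counts divided by all exon bases, Jak2 held 43.7% to 53.4% of the kinase sum, while no STAT gene exceeded 24.8% of the STAT sum.

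The length that a count is divided by moved the order. The deposited length joins all exons of a gene and came to 9527 bases for Stat3 and 7133 for Stat5a. Their principal transcripts have 4516 and 3888 bases, so the deposited length was 2.11 times and 1.83 times as long. For Jak2 both lengths were 5030 bases. With principal transcript lengths for every gene, a choice made after the data were seen, Stat3 was the highest of the 9 genes at 97.6 ± 17.6 TPM, followed by Stat5a at 75.9 ± 16.4 (SD, n = 3 each). Stat6 stood at 64.0 ± 13.4, Jak2 at 61.3 ± 21.3 and Stat5b at 49.8 ± 12.8 TPM. Jak2 still led the kinases with 39.2% of their sum, beside 30.4% each for Jak3 and Jak1. Of the STAT sum, Stat3 then held 29.0% on average, Stat5a 22.2%, Stat6 18.8% and Stat5b 14.7%. Stat2 and Stat4 remained the lowest, at 27.5 ± 10.3 and 24.4 ± 6.17 TPM.

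**Figure D3:**
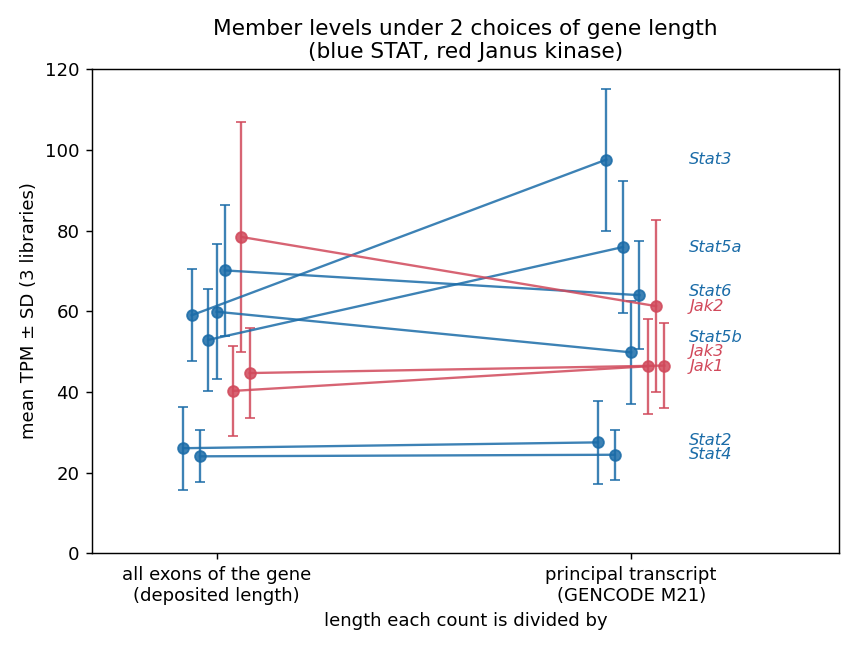
Mean TPM with SD over 3 libraries (vertical axis) of each gene when counts are divided by all exon bases (left) or by the principal transcript (right). Stat3 stands at 59.0 TPM on the left and 97.6 TPM on the right, while Stat2 and Stat4 stay below 28 TPM in both.

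Differences between the libraries were tested by chi-square on the counts of 11595 genes. A gene was called when its Benjamini-Hochberg adjusted p was under 0.05 and its highest library was at least 2 times its lowest, after scaling for depth. Of all genes 29.5% were called, and of the 9 genes 1, Stat2. Read from these same calls, 22.6% of the genes with no exon overlap on the opposite strand were called. Stat2 is 1 of the 5 such genes among the 9, so this subset is no second test of it. Its ratio of 2.02 lay at the threshold (chi-square, adjusted p = 0.00424). The ratio was 1.93 with DESeq2 size factors, where Stat2 was not called. It was 1.98 when scaling and test were run anew on genes with no opposite-strand overlap alone. That setting called 15.5% of its 6933 genes and 0 of the 5 among the 9. Without replicate 2 the ratio of Stat2 was 1.13. By the adjusted p alone, with any ratio, 6 of the 9 genes passed, beside 55.5% of all genes. The ratios of the other 8 genes ran from 1.16 for Stat6 to 1.61 for Jak2. The coefficient of variation of TPM ran from 19.3% for Stat3 to 39.5% for Stat2 with a median of 27.0%, beside a median of 34.7% over the 5939 protein-coding genes that reached 10 TPM.

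In 8 of the 9 genes the lowest level was that of replicate 3, as it was in 53.6% of 9826 protein-coding genes with a mean count of at least 10 and in 59.2% of those with no opposite-strand overlap. Replicate 3 also had the largest share of its counts in genes with an opposite-strand overlap, 66.5%, against 51.7% in replicate 1 and 55.1% in replicate 2. When TPM was scaled over genes with no such overlap, 3 of the 9 genes were lowest in replicate 3, and so were 30.7% of 6544 protein-coding genes with no overlap. Set against the average of the remaining libraries, the median of the 9 genes in replicate 3 was -0.63 on the log2(TPM + 1) scale with all genes and -0.03 with that scaling. The median of all protein-coding genes was -0.40 with all genes in the scaling. With the other scaling the median of protein-coding genes with no overlap was 0.06, so both the scaling and the genes differ between these values. Jak2 kept the lowest value in replicate 3, at -0.97 and -0.38, and Stat2 in replicate 2, at -0.63 and -0.89.

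**Figure D4:**
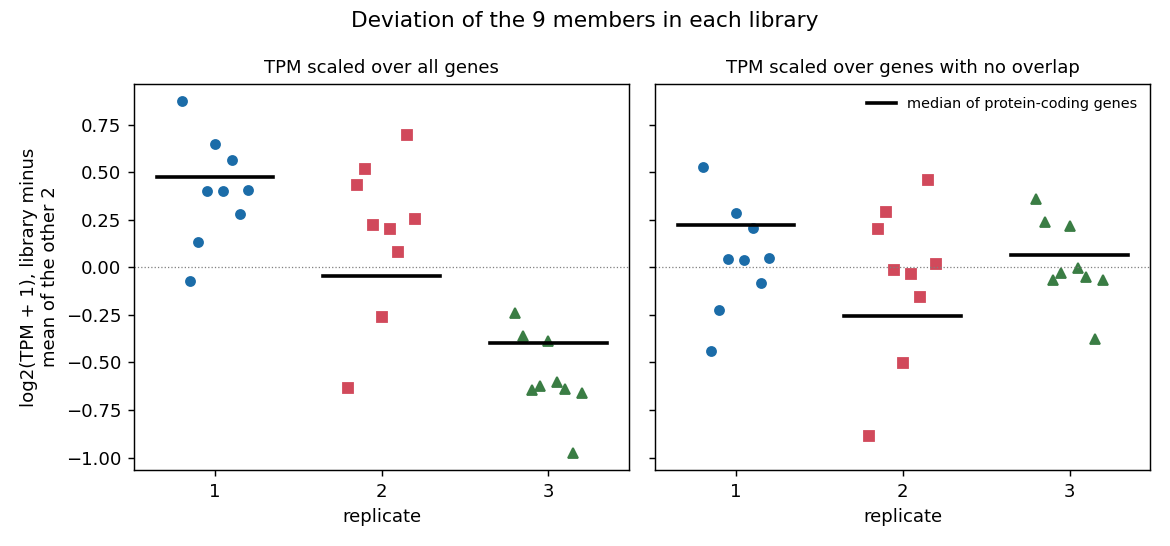
Difference of log2(TPM + 1) in a library from the mean of the other libraries (vertical axis) for the 9 genes, with TPM scaled over all genes (left) or over genes with no opposite-strand overlap (right), and the median of protein-coding genes as a black line. The points of replicate 3 all lie below 0 on the left and lie on either side of 0 on the right.

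Exons of 4 of the 9 genes overlapped those of a gene on the other strand, beside 16.2% of all genes. Among protein-coding genes alone, 77.9% were free of such overlap. Stat3 and Stat5a end in each other and share 72 bases, 0.756% of the exons of Stat3 and 1.01% of those of Stat5a. Stat6 shares 40 bases with Nab2, a corepressor of EGR factors, which had 87.6, 81.6 and 86.8 TPM in replicates 1, 2 and 3. Jak1 shares 4 bases with Raver2, which encodes an RNA-binding protein and had 10, 1 and 16 counts. Stat2, Stat4, Stat5b, Jak2 and Jak3 had no such overlap. On the same strand, Stat4 shares 1033 exon bases (26.7% of its own) with Gm28177 and Jak3 shares 404 (7.55%) with Insl3, the gene of an insulin-like hormone. The header shows no option to count a fragment that lies in more than 1 gene, and a fragment that falls in both genes then goes to neither. Gm28177 had 0, 0 and 2 counts and Insl3 14, 0 and 11. The loss in Stat4 and Jak3 was not tested.

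The rest of the pathway was read from a list of 56 genes, of which 42 reached 10 TPM, and 8 of the 55 with enough counts were called in the test between libraries, beside the 29.5% of all genes. Of 17 receptor chains, 13 reached 10 TPM, led by the interleukin 2 receptor chain Il2ra at 559 ± 166 TPM (SD, n = 3). The interleukin 12 receptor chains stood at 140 ± 43.7 TPM for Il12rb2 (overlapped on the other strand) and 40.3 ± 20.1 for Il12rb1. The chain that binds Jak3, Il2rg, had 225, 4 and 142 counts and 29.1 ± 16.1 TPM, and the interleukin 4 receptor chain Il4ra (overlapped) had 46.4 ± 13.1. Il2rg was among 5 receptor chains called between libraries, with Il12rb1, Il27ra, Il10rb and Ifnar2. The interferon gamma receptor chains were lower, at 16.9 ± 6.51 TPM for Ifngr1 and 3.16 ± 1.39 for Ifngr2, and the shared chain Il6st of the interleukin 6 family was at 5.29 ± 1.99.

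Of 17 genes that restrain the pathway, 11 reached 10 TPM. The phosphatase Ptpn6 (overlapped) was highest at 175 ± 50.6 TPM (SD, n = 3), followed by the phosphatases Ptpn2 at 68.5 ± 22.0 and Ptpn1 at 60.5 ± 19.0. Among the suppressors of cytokine signalling, Socs3 had 62.7 ± 17.7 TPM, Cish (overlapped) 46.0 ± 14.0 and Socs1 37.4 ± 18.7, and the lowest was Socs6 at 1.86 ± 0.536. Socs7 and the STAT inhibitor Pias1 were called between libraries, and so was the STAT-binding partner Nmi. Of 5 nuclear partners 3 reached 10 TPM, and Irf9, which pairs with Stat2, had 10.3 ± 3.21 TPM. All 11 target genes did, with Myc at 183 ± 60.1, Pim1 (overlapped) at 145 ± 37.7 and the Th1 factor gene Tbx21 at 70.5 ± 22.1 TPM. Of 6 cytokines 4 did, from Ifng at 604 ± 252 TPM to Il2 at 11.7 ± 10.3. Il21 and Csf2, also among these 4, were overlapped on the other strand. Il4, the cytokine that acts through Stat6, had 9.61 ± 2.96 TPM from 27, 1 and 30 counts. Il10 had 3, 0 and 2 counts. Il2 had 47, 0 and 36 counts and Csf2 57, 0 and 24. The 0 of Il2 and of Csf2 in replicate 2 lies below the counting floor of 3 counts.

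**Figure D5:**
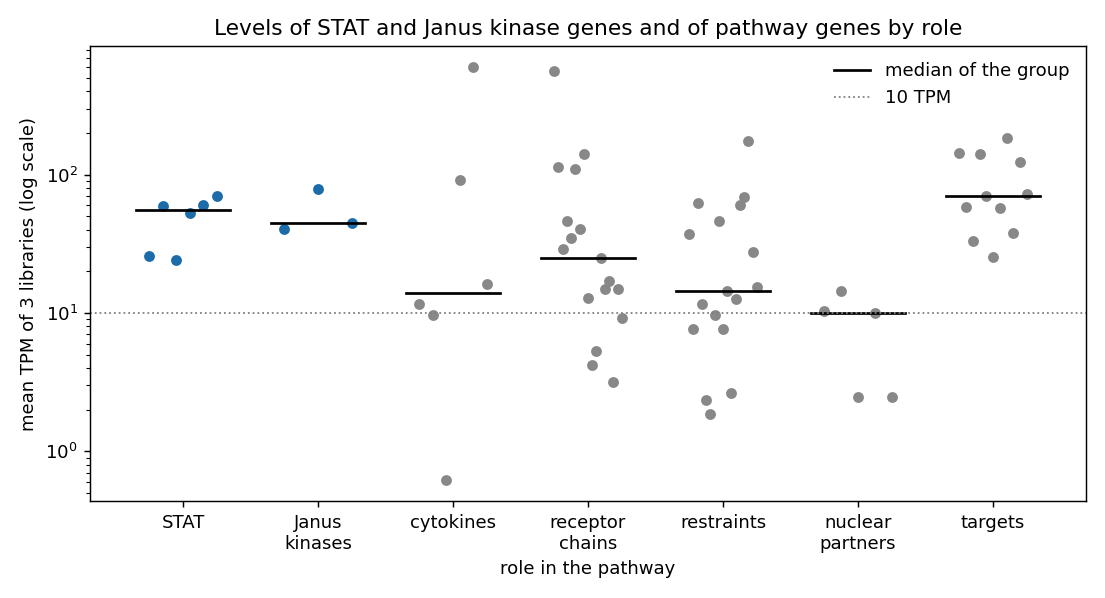
Mean TPM of 3 libraries (vertical log axis) for the STAT genes, the Janus kinases and 56 pathway genes grouped by role, with the median of each group as a black line and 10 TPM as a dotted line. The 9 STAT and kinase genes lie between 24.0 and 78.4 TPM, while cytokines run from 0.615 to 604 TPM.

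For each of the 5 genes with no opposite-strand overlap, the protein-coding gene of the same kind nearest in level was the one with the smallest distance in log2(TPM + 1) over the 3 libraries. These were Arpc4 for Jak2 (distance 0.05), Ppp1r8 for Jak3 (0.05), Metap2 for Stat5b (0.07), Oxsr1 for Stat4 (0.07) and Trappc6a for Stat2 (0.09). Within a distance of 0.5 there were 118 genes for Jak2 and 248 for Stat4 among 6539 candidates, so 3 libraries set few genes apart by this measure.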

How the data were processed

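Each deposited file holds the counts of 1 library, not normalized. Per the file headers, the authors counted with featureCounts 1.4.6-p4 over exons by gene of GENCODE mouse release 13, required both ends to map and used strand setting 1. The sources used here give neither an aligner version nor a fragment length. Per the labels the molecule is total RNA, but the protocol they link to names poly(A)+ RNA. The deposited length of each gene, another value per the file headers, counts its exon bases. Value columns left unused numbered 0.

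Gene coordinates in the files are of GRCm38 (mm10), and names came from GENCODE release 21 on that assembly, by identifier without version: 50376 of 50600 genes matched. Coordinates are counted from 1. A gene was overlapped when it shared any exon base with a gene of the other strand. TPM was computed from counts and deposited lengths. The chi-square test took library sizes scaled by edgeR's TMM and genes whose mean count was 10 or more, put the lowest library at no less than 3 counts, with Benjamini-Hochberg adjustment over all genes tested. It compares libraries and holds counting error only. Ratios between genes used log2(TPM + 1), with an exact sign-flip permutation test. Windows were compared on the longest principal transcript. The chi-square test was tried on simulated counts with Poisson error only and sizes set by library totals. That trial therefore does not measure its false calls in these libraries. Software was edgeR 4.0.16, DESeq2 1.42.0 (size factors only), R 4.3.3 and scipy 1.17.1.

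The text may name the 9 genes, genes that share exon bases with them, the pathway list, markers and the nearest gene in level. Gm28177 and Insl3, which overlap on the same strand, were added after their values were seen. The 9 genes, the lists and the tests were chosen with earlier results of these data known. Alternatives changed the scaling, the thresholds, the pseudocount, the mean, the gene length and the libraries used.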

Additional observations from a re-analysis of the deposited data

How the results depend on the processing

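All 9 genes reached 10 TPM under each scaling, length and library choice tried, and 5 of them reached 50 TPM with the reported levels. The pathway count of 42 ran from 37 to 49 at 10 TPM and was 55 at 1 TPM. The count of neighbouring pairs with 1 direction in every library, 4 of 8, ran from 4 to 6 over the alternatives. The 3415 genes called between libraries were 1332 to 1941 when 1 replicate was left out, with 1332 without replicate 3, 1824 without replicate 2 and 1941 without replicate 1. They were 5180 at a ratio of at least 1.5, 1750 at a mean count of at least 100 and 1074 on genes with no opposite-strand overlap alone. Of the 9 genes the chi-square test called 0 to 1 with 1 replicate left out, beside 11.8% to 18.0% of all genes tested. It called 2 at a ratio of at least 1.5 (Stat2 and Jak2), beside 44.7% of all genes tested. With DESeq2 size factors it called 0, beside 29.1%, and with library totals 0, beside 32.1%. On genes with no overlap alone it called 0 of 5, beside 15.5%. By the adjusted p with any ratio, where 6 passed as reported, 5, 7 and 0 passed in the last 3 settings, and 1, 3 and 1 without replicates 1, 2 and 3. At an unadjusted p under 0.05 the counts were 5, 8 and 2, and 1, 3 and 3. For counts by p alone, the share of all genes was taken only for the adjusted p as reported, 55.5%. The counts in the other settings therefore have no share to be read against. The causes were not tested.

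Scaling over genes with no overlap raised the mean level of all 9 genes, to 71.1 TPM for Stat4 and 228 TPM for Jak2, since the sum then holds fewer genes, and left shares and their order in place. Without replicate 2 Stat6 was above Jak2. Without replicate 1 Stat3 was above Stat5b and Stat4 above Stat2. By the median over libraries Stat5a was above Stat3, Stat3 above Stat5b and Stat4 above Stat2. Counts not divided by length moved 5 of the 8 neighbour ratios by more than 1 SD. Principal transcript lengths, added after the data were seen, moved the levels of 2 genes and the shares of 7 by more than 1 SD. No paired analysis was possible because the labels give 1 group. Depth limits replicate 2, where the 9 genes had 14 to 88 counts each.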
